A study of Mus musculus with 10 samples.

Results

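The receptor tyrosine kinase genes Ret and Met, the co-receptor genes Gfra1 and Gfra2 and the ligand genes Gdnf, Nrtn and Hgf were examined in cultured mouse molars treated with insulin-like growth factor 1 (IGF1). These 7 genes, of 18381 in the expression table, were chosen by their place in the RET and MET pathways with the IGF1 against control differences of these same samples already known. Their differences on that contrast are therefore a description. Whether the fit over all genes called a gene is stated for each, but those calls were among the values known when the genes were chosen and are no test of them. All 7 had a row under their GENCODE symbol, and all 7 passed the filter on low counts that left 14504 genes for the fit.

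First lower molars were taken from wild type C57BL/6JOlaHsd embryos at E14 and kept for 6 h in hanging drops. From each of 5 embryos, numbered 1, 2, 3, 4 and 6, a tooth received mouse recombinant IGF1 at 750 ng/ml, dissolved in PBS with 0.1% BSA, and the opposite tooth received an equal volume of that vehicle. Left and right sides were balanced between the treatments, and each tooth was sequenced as its own library, giving 5 IGF1 and 5 control samples. The model has limits that touch every value here: each library is a whole tooth germ of epithelium and mesenchyme, cultured outside the jaw, with a single dose and a single time.

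RET is a receptor tyrosine kinase that does not bind its ligands alone. GDNF binds the membrane-anchored co-receptor GFRA1 and neurturin, the product of Nrtn, binds GFRA2, and each complex then engages RET. MET is the receptor of hepatocyte growth factor (HGF), which is typically made by mesenchyme and acts on neighbouring epithelium. Both receptors signal through RAS-ERK and PI3K, and in the tooth germ GDNF family ligands are also known as survival factors for the nerves that come to supply it.

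Total estimated counts ran from 2845773 to 8403151 in the control teeth and from 3456634 to 8763113 in the IGF1 teeth, with both teeth of embryo 1 the lowest of their group. The defining markers of epithelium and mesenchyme fitted the tissue label: Krt14, a basal keratin, stood at 433 ± 92.0 CPM (SD, n = 5) in the control teeth, and Pdgfra, a mesenchymal growth factor receptor, at 969 ± 96.0. Of the markers of other cells, Pecam1 of endothelium stood at 75.0 ± 5.65 CPM, Csf1r of macrophages at 26.2 ± 6.61, Tubb3 of neurons at 8.48 ± 2.496, Myod1 of skeletal muscle at 1.24 ± 0.691 and Sox10 of glia at 0.934 ± 0.647, including a control tooth at 0. CPM is the count of a gene scaled to the size of its library, after TMM normalisation. In such bulk samples, fewer cells of a type and less RNA per cell cannot be told apart.

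In IGF1-treated molars, Ret and Hgf fell and Gfra2 rose, while Met, Gfra1, Gdnf and Nrtn did not pass the threshold. In the fit over all genes, 3 of the 7 were called (edgeR's quasi-likelihood test, Benjamini-Hochberg adjusted p under 0.05), where 11.5% of all genes tested were called. In the higher direction 1 of 7 was called against 6.72% of all genes, and in the lower direction 2 of 7 against 4.76%. Since the genes were chosen with these results known, nothing is read from those shares, and the calls under other fits given below only describe how the values depend on the processing. The levels of all 7 genes in the paired teeth show a single gene, Ret, whose control and IGF1 ranges did not overlap. Across all genes tested, 7.25% had ranges that did not overlap. Ret and Hgf moved the same way in 5 of 5 pairs, as did 24.2% of all genes.

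**Figure D1:**
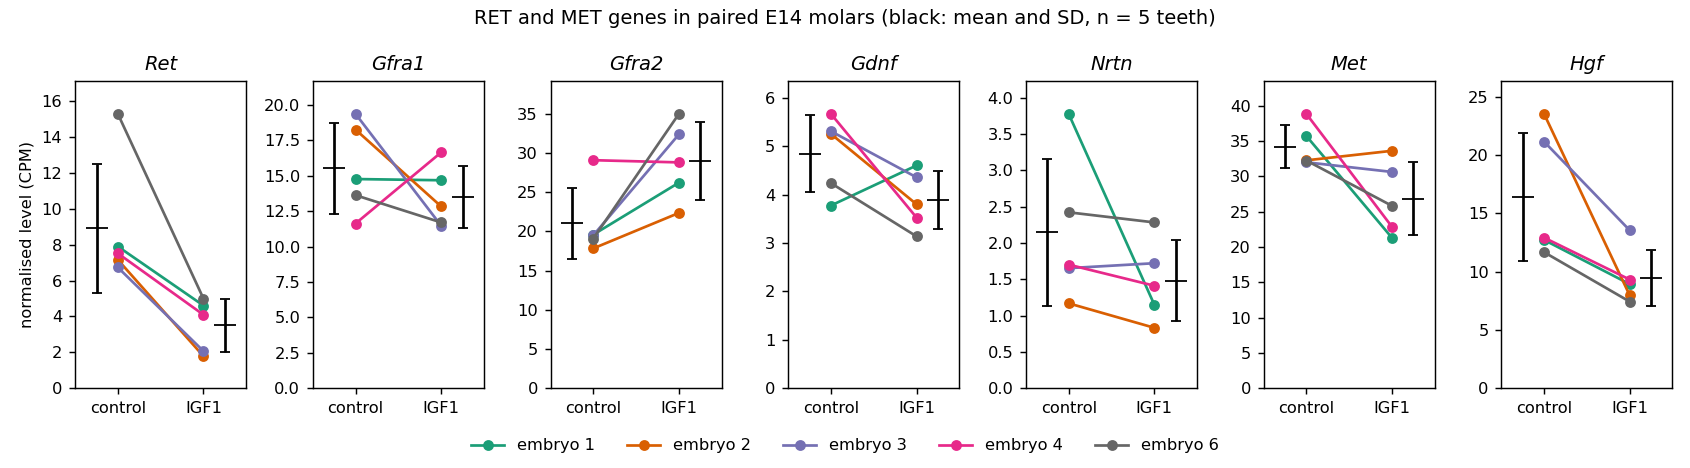
Normalised level (CPM, y axis, linear from 0) of each gene in control and IGF1 teeth (x axis), with a line joining the teeth of each embryo and black bars giving the mean and SD of 5 teeth. Ret lies at 6.73 to 15.3 CPM in control teeth and at 1.78 to 5.00 CPM in IGF1 teeth, and the Hgf line descends in every embryo.

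Ret (ENSMUSG00000030110, GRCm38 chr6:118151745-118197718, minus strand, protein coding) had the largest difference among the 7 genes. In the control teeth of embryos 1, 2, 3, 4 and 6 its level was 7.90, 7.16, 6.73, 7.52 and 15.3 CPM. In the IGF1 teeth of the same embryos it was 4.61, 1.78, 2.07, 4.09 and 5.00 CPM. The lowest control tooth thus lay above the highest IGF1 tooth, and the control tooth of embryo 6 stood apart from the other 4. These levels rest on few reads, 23 to 101 counts in a control tooth and 15 to 35 in an IGF1 tooth. The group means were 8.92 ± 3.59 and 3.51 ± 1.49 CPM (SD, n = 5), and the fitted log2 fold change was -1.40 (SE 0.23), or 2.65-fold lower. Within embryos, the log2 ratio with 1 CPM added to each value was -0.67, -1.55, -1.33, -0.74 and -1.44, and the added 1 CPM brings each ratio nearer to 0. The fall was called in all 11 alternative fits, with a log2 fold change between -1.55 and -1.27. Leaving out embryo 6, whose control tooth was the highest, gave a log2 fold change of -1.34.

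Ret is best known in neurons and their precursors, so markers of nerve are set beside it. Of 11 neuron markers, 5 were tested and 1 was called, Tubb3, which was higher (log2 fold change 0.70, SE 0.18, adjusted p = 0.0283) and lost that call without embryo 1 (0.70), 2 (0.71), 4 (0.65) or 6 (0.55) and without the replicate block (0.77). Of all genes tested, 11.5% were called and 6.72% were called higher. The other 4 neuron markers tested, named after their values were seen, were not called. Prph was at 2.07 ± 0.352 and 1.39 ± 0.708 CPM, lower in 5 of 5 pairs (log2 fold change -0.68, SE 0.32), Nefm was at -0.21 (SE 0.30), Nefl at 0.09 (SE 0.23) and Snap25 at 0.32 (SE 0.41). The summed level of the 9 neuron markers with a row was 24.99 to 47.8 CPM in control teeth and 26.2 to 53.3 in IGF1 teeth. Of 8 glia markers, 4 were tested and 0 were called, where 11.5% of all genes tested were called. Of the 4 glia markers tested, 1 had an unadjusted p under 0.05, with 0 called by DESeq2 and 1 by limma-voom. That gene, S100b, named after its values were seen, was at 3.29 ± 1.57 and 1.62 ± 0.844 CPM, lower in 5 of 5 pairs (log2 fold change -1.04, SE 0.31, adjusted p = 0.0555), and DESeq2 gave it no adjusted p. The sum of all 8 glia markers was 89.7 to 124 CPM in control teeth and 81.4 to 101 in IGF1 teeth. The control tooth of embryo 6, the highest in Ret, had the lowest neuron sum of the control teeth at 24.99 CPM. In the pairs, the neuron sum was higher with IGF1 in embryos 1 and 6 and lower in embryos 2 and 3. In embryo 4 it was nearly level (47.8 and 47.4 CPM), while Ret was lower in all 5. By control mean, Nefl (10.8 CPM), Tubb3 (8.48) and Nefm (7.70) weigh most in the neuron sum. Erbb3 (70.6 CPM), also named after its values were seen, weighs most in the glia sum. Prph and S100b, lower in 5 of 5 pairs, therefore weigh little in these sums. The part of nerve and glia in the Ret values was not tested.

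The co-receptor genes differed from Ret and from each other. Gfra2 (ENSMUSG00000022103, chr14:70890120-70979838, plus strand, protein coding) stood at 19.6, 17.8, 19.5, 29.1 and 19.1 CPM in the control teeth of embryos 1, 2, 3, 4 and 6. It stood at 26.2, 22.3, 32.4, 28.8 and 35.0 CPM in their IGF1 teeth. Of the 5 pairs, 4 were higher with IGF1, while the teeth of embryo 4 were nearly level, and the ranges overlapped because of that embryo's high control tooth. The means were 21.01 ± 4.56 and 28.9 ± 4.98 CPM, a fitted log2 fold change of 0.47 (SE 0.13), or 1.38-fold higher. Within embryos the log2 ratio of CPM + 1 was 0.40, 0.31, 0.70, -0.01 and 0.84. This call was the least secure of the 3. It was kept in 4 of 11 alternative fits and lost in 7, namely under DESeq2's Wald test, without the filter on low counts, without the replicate block, and without embryo 1, 2, 3 or 6, where the log2 fold change lay between 0.36 and 0.60 over all fits that left out an embryo. The direction was higher in every one of these fits.

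Gfra1 (ENSMUSG00000025089, chr19:58235604-58455909, minus strand, protein coding) gave 14.8, 18.3, 19.4, 11.6 and 13.6 CPM in the control teeth and 14.7, 12.8, 11.5, 16.7 and 11.7 CPM in the IGF1 teeth, in the same embryo order. Embryo 4 moved up, embryo 1 was level, and embryos 2, 3 and 6 moved down. The means of 15.5 ± 3.23 and 13.5 ± 2.19 CPM differed by less than their spread, and the log2 fold change was -0.22 (SE 0.18), not called. Without embryo 3 it was -0.07 and without embryo 4 it was -0.40. An unnamed gene model, Gm16277, overlaps Gfra1 on the opposite strand and has no row in the table, and whether the counting used strand is not given in the sources used here.

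Of the RET ligands, Gdnf (ENSMUSG00000022144, chr15:7810846-7837575, plus strand, protein coding) was measured at 3.78, 5.26, 5.32, 5.67 and 4.24 CPM in control teeth and at 4.61, 3.80, 4.36, 3.53 and 3.14 CPM in IGF1 teeth. It was lower with IGF1 in 4 of 5 pairs and higher in embryo 1, the embryo with the fewest reads. The log2 fold change was -0.35 (SE 0.22), not called in any fit. Nrtn (ENSMUSG00000039481, chr17:56751325-56757530, minus strand, protein coding) was at 3.78, 1.17, 1.65, 1.70 and 2.42 CPM in control teeth and at 1.15, 0.832, 1.72, 1.41 and 2.28 CPM in IGF1 teeth. Its log2 fold change of -0.40 (SE 0.34) was not called and rested mainly on embryo 1, with -0.17 when that embryo was left out. Nrtn had 4 to 16 counts in a tooth.

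Met (ENSMUSG00000009376, chr6:17463800-17573980, plus strand, protein coding), the HGF receptor, stood at 35.7, 32.3, 32.0, 38.9 and 32.3 CPM in the control teeth and at 21.3, 33.6, 30.6, 22.9 and 25.8 CPM with IGF1. The teeth of embryos 1, 4 and 6 were lower with IGF1 while those of embryos 2 and 3 were nearly level. The means were 34.2 ± 3.01 and 26.9 ± 5.20 CPM, with a log2 fold change of -0.34 (SE 0.13) that was not called in any of the 12 fits.

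Hgf (ENSMUSG00000028864, chr5:16553495-16620152, plus strand, protein coding), the MET ligand, was at 12.7, 23.5, 21.1, 12.9 and 11.7 CPM in control teeth and at 8.93, 7.96, 13.5, 9.32 and 7.42 CPM in IGF1 teeth. Every embryo was lower with IGF1, and embryo 2 had the steepest fall, but the ranges overlapped because the IGF1 tooth of embryo 3 lay above 3 of the control teeth. The means were 16.4 ± 5.51 and 9.43 ± 2.42 CPM, a log2 fold change of -0.79 (SE 0.17), or 1.73-fold lower. Within embryos the log2 ratio of CPM + 1 was -0.47, -1.45, -0.61, -0.43 and -0.59, so that embryo 2 alone had a ratio beyond -0.61. The call was kept in 10 of 11 alternative fits, between -0.87 and -0.57, and was lost without the replicate block (-0.80). Of 12 mesenchymal markers, tested as the tissue compartment that typically makes Hgf, 2 were called lower, Pdgfra (log2 fold change -0.53, SE 0.08, adjusted p = 0.00183) and Vim (-0.42), whose call was lost without the replicate block (-0.41). Of all genes tested, 4.76% were called lower. DESeq2 and limma-voom each called 3 of the 12, adding Barx1 (-0.28, adjusted p = 0.0510 in edgeR), which like Pax9 (-0.23) was lower in 5 of 5 pairs. Lum (0.22), Col1a1 (0.14) and Col1a2 (0.10) had log2 fold changes above 0, each with 4 of 5 pairs higher, and the other 9 of the 12 were below 0. These genes beside Pdgfra were named after their values were seen. The summed mesenchymal level was 7320 to 9510 CPM in control teeth and 6739 to 9415 in IGF1 teeth, lower in 4 of 5 pairs, and Prrx1 was at 804 ± 128 and 763 ± 82.8 CPM. The endothelial sum was lower in 5 of 5 pairs (369 to 420 against 292 to 385 CPM). The part of these markers in the Hgf values was not tested. The gene models Gm42975 and Gm43489 overlap Hgf on the same strand and have no row in the table.

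**Figure D2:**
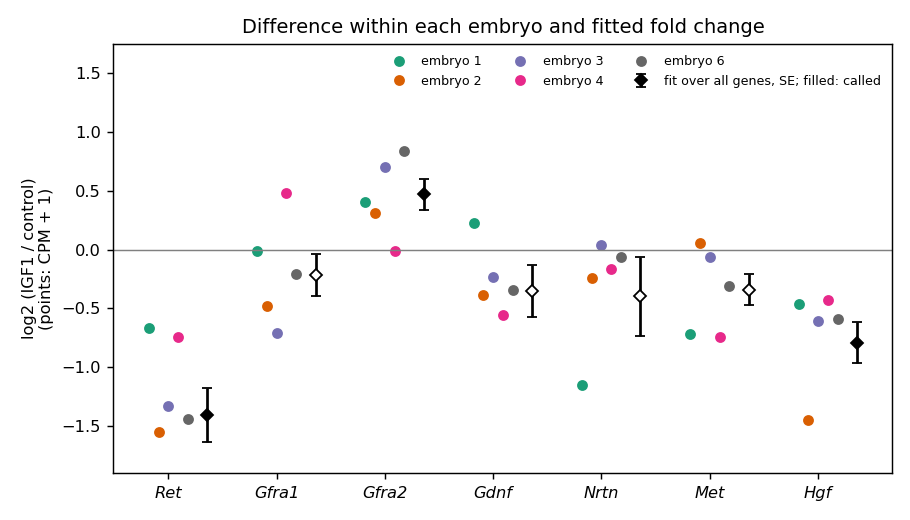
Log2 ratio of IGF1 to control within each embryo (points, CPM + 1) and the fitted log2 fold change with its SE (diamonds, filled where called) for the 7 genes on the x axis. All 5 Ret points and all 5 Hgf points lie below 0, and 4 of 5 Gfra2 points lie above it.

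The promoter of Hgf, the ligand gene that fell, is shown with that of Gdnf, the ligand gene of the other receptor, which was not called. The windows hold the 250 bases before the annotated start in RefSeq (GRCm38.p6), 5′ to 3′ on the plus strand. RefSeq promoter entries matched 5 of the 7 genes, and Ret and Gfra2 had no entry. RefSeq lists 2 starts each for Hgf and Gdnf. The window of the upstream start is printed, and the window of the other start held 0 matches in either gene. Capitals mark matches to 6 motifs, searched on both strands and chosen with the results known.
Hgf, chr5:16553245-16553494: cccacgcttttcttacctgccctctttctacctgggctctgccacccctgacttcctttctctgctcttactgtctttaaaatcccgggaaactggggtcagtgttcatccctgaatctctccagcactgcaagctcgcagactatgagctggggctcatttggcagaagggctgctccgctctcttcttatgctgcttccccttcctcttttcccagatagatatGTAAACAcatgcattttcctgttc
Gdnf, chr15:7809798-7810047: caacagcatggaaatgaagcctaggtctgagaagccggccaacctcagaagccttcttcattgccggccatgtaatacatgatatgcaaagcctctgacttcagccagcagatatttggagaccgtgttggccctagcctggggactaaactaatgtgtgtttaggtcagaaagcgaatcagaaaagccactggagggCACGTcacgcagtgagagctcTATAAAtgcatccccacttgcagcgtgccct
In the Hgf window the capitals are GTAAACA, the reverse complement of the forkhead core TGTTTAC, which begins 24 bases before the start and is found in 3.17% of 32536 mouse promoter windows of the same length. In the Gdnf window they are CACGT, the reverse complement of the hypoxia element core ACGTG, 52 bases before the start (16.7% of windows), and the TATA box TATAAA 31 bases before it (12.3%). The other motifs searched were the AP-1 site TGANTCA, the GC box GGGCGG and the ETS core CCGGAA, found in 6.73%, 33.0% and 12.1% of windows. The search covered 7 windows of 5 members, and those of Met, Nrtn and Gfra1 held 6, 3 and 1 matches, to motifs other than the forkhead core. Each share is per window and was not adjusted for the number of windows and motifs searched. A match describes the letters, not a bound site. Both windows had 50.8% GC, against a median of 52.4%.

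To compare levels between genes, counts were divided by exon length and scaled to the same total in each tooth (TPM). In control teeth, the order from the highest was Gfra2 at 22.8 ± 5.29 TPM, Met at 17.1 ± 1.87, Gfra1 at 10.9 ± 2.24, Hgf at 8.72 ± 2.90, Nrtn at 8.06 ± 3.97, Gdnf at 5.06 ± 0.860 and Ret at 5.01 ± 1.86 (SD, n = 5). Only Met and Gfra1 were neighbours in this order whose ranges did not overlap, at 15.4 to 19.7 and 8.28 to 13.6 TPM. Ret and Gdnf were nearly level at the low end, and both co-receptor genes were above Ret. This order depends on the length used: with the longest transcript in place of all exons, Hgf stood at 14.1 TPM, above Gfra1 at 9.999, and Gdnf at 3.95 TPM was below Ret at 4.86. It also turned on single teeth: Nrtn lay above Hgf without embryo 2 (8.99 and 7.81 TPM) or 3 (8.52 and 8.08), and Ret above Gdnf without embryo 2 (5.27 and 4.97), 3 (5.31 and 4.93) or 4 (5.18 and 4.82). On the CPM scale, Ret varied within the control group by 40.2% (coefficient of variation), where counting error alone gives 14.8%. That spread rested on the tooth of embryo 6, and without it Ret varied by 6.81%, below the 15.8% of counting error. Gdnf varied by 16.5%, where counting error gives 20.1%.

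**Figure D3:**
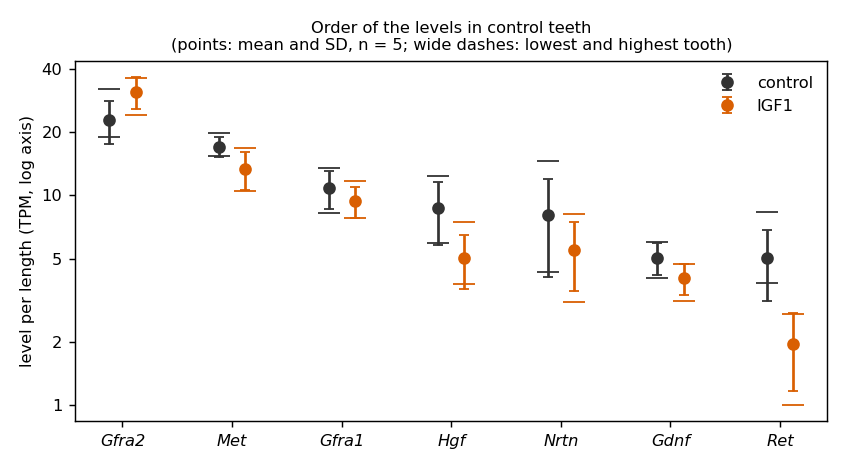
Level per exon length (TPM, y axis, log scale) of the 7 genes in control and IGF1 teeth, with points and bars for the mean and SD of 5 teeth and wide dashes for the lowest and highest tooth. Gfra2 is highest in control teeth at 22.8 TPM, and Ret is at 5.01 TPM in control teeth and 1.97 TPM in IGF1 teeth.

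Ratios within a tooth set the co-receptors against Ret. The TPM ratio of Gfra2 to Ret was 4.96 ± 1.80 (2.38 to 7.39) in control teeth and 18.3 ± 8.22 (10.9 to 29.9) in IGF1 teeth, higher in 5 of 5 pairs with no overlap. The ratio of Gfra1 to Ret was 2.40 ± 0.979 and 5.52 ± 2.39, also higher in 5 of 5 pairs. The ratio of Hgf to Met, the ligand over its receptor, was 0.521 ± 0.204 in control teeth and 0.383 ± 0.0969 in IGF1 teeth, with 2 of 5 pairs higher. These ratios are made of the levels above and add no independent measurement.

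The other genes of both pathways were counted from lists. Beside the members, the GDNF family and RET partner list held 11 genes, of which 9 had a row and 7 were tested. Of these 7, 0 were called, where 11.5% of all genes tested were called. In this list 2 had an unadjusted p under 0.05 and 0 were called by DESeq2 or limma-voom. The median log2 fold change of the list was 0.02 against -0.0038 for all genes tested. The most abundant were Ncam1, a neural adhesion molecule that can bind GDNF, at 287 ± 23.5 and 287 ± 40.3 CPM (log2 fold change -0.01, SE 0.07, adjusted p = 0.963), and the sorting receptor Sorl1 at 102 ± 12.3 and 103 ± 3.55 CPM (0.03, SE 0.08, adjusted p = 0.860). Gfra4, the persephin co-receptor, named after its values were seen, was at 4.33 ± 0.685 and 6.69 ± 0.954 CPM, higher in 5 of 5 pairs (0.61, SE 0.19, adjusted p = 0.0669).

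HGF is secreted as a precursor that proteases cleave, and MET acts with several surface partners. Of 14 such genes 13 were tested and 2 were called, both lower, with a median log2 fold change of -0.05, where 4.76% of all genes tested were called lower. Plat, the tissue plasminogen activator, was at 32.7 ± 4.71 CPM in control and 23.1 ± 6.54 CPM in IGF1 teeth (-0.54, SE 0.12, adjusted p = 0.0168). Itgb4, the integrin chain of hemidesmosomes and a partner of MET, was at 125 ± 27.2 and 86.7 ± 9.22 CPM (-0.50, SE 0.11, adjusted p = 0.0144). Both were lower in 5 of 5 pairs. The call of Plat was lost without embryo 6 (-0.44) or the replicate block (-0.51), and that of Itgb4 without embryo 1 (-0.43) or 4 (-0.42).

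Of 21 adaptor and docking genes, 21 were tested and 2 were called, in opposite directions, with a median of 0.01. That is 9.52% of the list, against 11.5% of all genes tested. Gab1, the docking protein that MET recruits, fell from 202 ± 8.27 to 158 ± 9.49 CPM (-0.36, SE 0.06, adjusted p = 0.00446), with no overlap between 193 to 211 and 147 to 172 CPM, as for 7.25% of all genes tested. Dok5, an adaptor of RET, rose from 4.91 ± 1.51 to 10.2 ± 2.04 CPM (1.04, SE 0.22, adjusted p = 0.0112), in 5 of 5 pairs. These adaptors also serve other receptors, so the counts are not specific to RET or MET.

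Of 16 genes known to respond to RET or MET signalling, 16 were tested and 5 were called, 4 of them lower, with a median log2 fold change of -0.19. Of all genes tested, 11.5% were called and 4.76% were called lower. The 4 lower genes are feedback inhibitors of ERK signalling that many receptor kinases induce. Spry2 fell from 42.1 ± 5.45 to 22.4 ± 4.54 CPM (-0.90, SE 0.12, adjusted p = 0.000846), Spry1 from 70.2 ± 9.26 to 44.8 ± 10.7 CPM (-0.66, SE 0.09, adjusted p = 0.0014), and Dusp6 from 192 ± 41.4 to 126 ± 38.1 CPM (-0.63, SE 0.07, adjusted p = 0.00042). Spry4 fell from 55.7 ± 19.0 to 43.6 ± 18.6 CPM (-0.40, SE 0.10, adjusted p = 0.0295), a call lost without embryo 3 (-0.31), 4 (-0.35) or 6 (-0.44). Without the replicate block Dusp6 (-0.61) and Spry4 (-0.36) were not called. The ETS factor genes Etv4 and Etv5, which RET induces in the kidney, were not called (-0.11, adjusted p = 0.588, and -0.23, adjusted p = 0.172).

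Of 20 genes that regulate Ret or Gdnf in other organs, 15 had a row, 11 were tested and 2 were called, both lower in 5 of 5 pairs, with a median of -0.08, beside the same 4.76% over all genes. Eya1, a co-activator upstream of Gdnf in the kidney, fell from 131 ± 17.3 to 95.7 ± 6.33 CPM (-0.45, SE 0.08, adjusted p = 0.0049). Slit2, a guidance ligand that restrains Gdnf expression in the kidney, fell from 227 ± 34.7 to 187 ± 20.02 CPM (-0.28, SE 0.08, adjusted p = 0.0406), a call lost without embryo 2 (-0.24), 3 (-0.23), 4 (-0.30) or 6 (-0.29) and without the replicate block (-0.28).

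**Figure D4:**
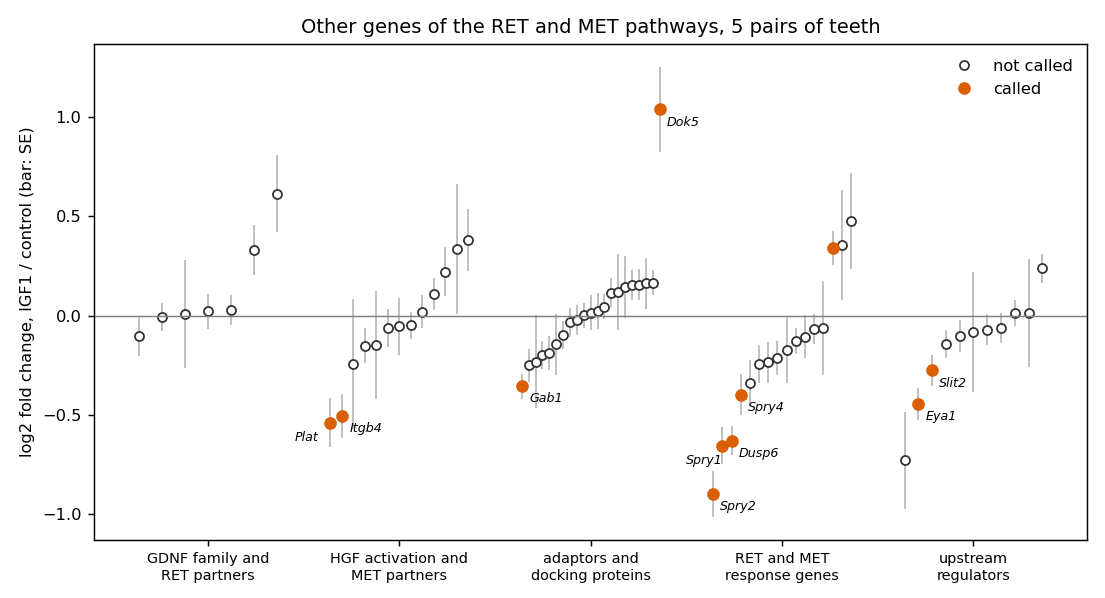
Fitted log2 fold change of IGF1 over control (y axis) with SE for each tested gene of 5 pathway lists (x axis), filled where called. The GDNF family list has 0 called genes of 7 tested, and 4 of the 5 called response genes lie below 0. Of all genes tested, 11.5% were called and 4.76% were called lower.

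Cell type marker lists bear on the same samples. Of 12 epithelial markers 1 was called higher, Krt5 (log2 fold change 0.43), a call lost without the replicate block (0.42) and without embryo 6 (0.38), where 6.72% of all genes tested were called higher. Krt15 (0.46, adjusted p = 0.0540) was called by limma-voom and not by edgeR or DESeq2. The summed epithelial level was 2208 to 3384 CPM in control and 2510 to 3492 CPM in IGF1 teeth, higher in 4 of 5 pairs. Of 6 macrophage markers tested 1 was called lower, Csf1r (log2 fold change -0.44, adjusted p = 0.0234), a call lost under DESeq2's Wald test (-0.44), without the replicate block (-0.43) and without embryo 3 (-0.42), 4 (-0.39) or 6 (-0.42). The other 5 tested were not called, with Cd68 at 0.27 and Adgre1 at 0.03 above 0 and the other 3 below, and the sum of all 8 macrophage markers was 54.4 to 75.1 CPM in control and 46.8 to 72.0 CPM in IGF1 teeth. Of 7 endothelial markers 1 was called lower, Cdh5 (-0.38), a call lost without the replicate block (-0.37) and without embryo 2 (-0.36) or 4 (-0.40). The other 6 endothelial markers were not called and were all below 0, from -0.41 for Tek to -0.06 for Cldn5, and the median of the 7 was -0.25. Both counts stand beside 4.76% of all genes called lower. Krt5, Krt15, Cdh5, Tek, Cldn5, Cd68 and Adgre1 were named after their values were seen. Of 3 skeletal muscle markers tested 0 were called, where 11.5% of all genes tested were called. Among these muscle markers, 0 had an unadjusted p under 0.05 and 0 were called by DESeq2 or limma-voom. The sum of all 8 muscle markers was 8.78 to 24.5 CPM in control and 7.46 to 49.0 CPM in IGF1 teeth, higher in 3 of 5 pairs. From control to IGF1 it went from 21.3 to 49.0 CPM in embryo 1 and from 22.4 to 7.46 CPM in embryo 3. Muscle content thus was not even between the teeth of a pair by this sum.

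**Figure D5:**
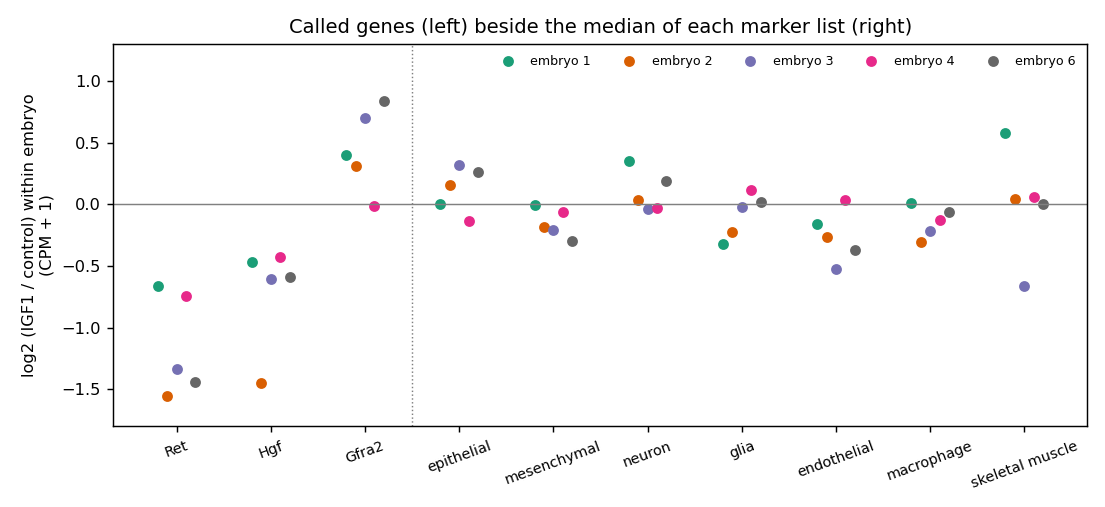
Log2 ratio of IGF1 to control within each embryo (y axis, CPM + 1, 1 point an embryo) for Ret, Hgf and Gfra2 at left and for the median of each marker list at right. The Ret points lie between -1.55 and -0.67 and the Hgf points between -1.45 and -0.43. The mesenchymal medians lie between -0.30 and -0.01, the endothelial between -0.52 and 0.03, and the skeletal muscle between -0.66 and 0.58. The medians of the other lists lie between -0.32 and 0.35. A median over several genes is not comparable with the values of a single gene.

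The genes whose levels followed each member most closely were ranked by Pearson's r of log2(CPM + 1) over the 10 teeth among 14503 genes. For Ret they were Ufc1 (r = 0.970), Penk (0.968) and Ylpm1 (0.955), and of these Penk, which encodes proenkephalin, was itself called lower (log2 fold change -0.57). For Hgf they included Abcg2 (0.940) and Scn7a (0.937), both called lower (-0.46 and -2.02). For Gfra2 they were Brms1l (0.945), Nckipsd (0.934) and Aifm1 (0.920), of which Aifm1 was called higher (0.37). For Met they were Adam17 (0.967), Secisbp2l (0.950) and Rnf20 (0.948). Of the other genes, Gfra1 was followed by Tmem69 (0.897), Sorcs1 (0.857) and Pcdhga1 (0.857), Gdnf by Nhs (0.917), Ulk2 (0.897) and Dock10 (0.892), and Nrtn by Ninl (0.966), Aste1 (0.954) and Iqgap3 (0.927). The teeth share embryos, treatment and scaling, and the best of 14503 genes is high by selection, so these values are a description.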

How the data were processed

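RNA-seq was measured in 10 single cultured teeth. The authors deposited estimated counts per gene, whole numbers that were not normalised. The submitters' processing notes name FastQC 0.11.8, Trimmomatic 0.39, Salmon 0.99.0, DESeq2 and GRCm38. The transcript set, rounding and use of strand are not given in the sources used here. Each of the 18381 genes has at least 10 counts in total. Of the identifiers, 18287 are in GENCODE M21, which gave symbols, positions and exon lengths, and 94 are not.

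Counts were tested in R 4.3.3 with edgeR 4.0.16 (TMM, filterByExpr with a minimum count of 10, quasi-likelihood test, Benjamini-Hochberg adjustment), with embryo as a replicate block. A gene was called at an adjusted p under 0.05. The SE was taken from the fold change and its F value. The labels pair the teeth by embryo. As a check, the departures of both teeth of an embryo from their group means correlated at 0.359, 0.252, -0.0311, 0.210 and 0.348 (embryos 1, 2, 3, 4 and 6). Counts of teeth in the same group differed beyond sampling noise (chi-square over its degrees of freedom 4.53 to 19.6), so none was merged. Ratios within embryos used log2(CPM + 1). TPM was computed from the counts and exon lengths. The procedure was tested on simulated data, and the outcome of that test is not reported here. DESeq2 1.42.0, limma 3.58.1, other filters, the fit without the block and leaving out each embryo were alternatives.

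The members and gene lists were chosen with earlier results of these data known. Named were all members, the called genes of each list (at most 4, by fold change), the 2 most abundant where none was called, the defining markers and the 3 genes most like each member. Of 147 listed genes, those with no row were not used here. Some results that fall under this rule are not reported here.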

Additional observations from a re-analysis of the deposited data

Results flagged for a closer look

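In 5 of 48 groups of 5 teeth, a tooth lay far from the other 4. The measure was its gap to the nearest tooth over the range of the group. A rate of about 1 in 20, or 2.4 groups, would hold for independent groups of normally distributed values. These groups share the same 10 teeth, and all genes but the members were included because they were called. The 2.4 is therefore no chance expectation for the 5 found. The control tooth of embryo 6 stood at 15.3 CPM for Ret against 6.73 to 7.90 in the others (gap over range 0.864). The control tooth of embryo 4 stood at 29.1 CPM for Gfra2 against 17.8 to 19.6 (0.844), and it is the tooth that makes the Gfra2 ranges overlap. For the feedback genes, the control tooth of embryo 2 was low in Spry2 at 32.7 CPM against 42.4 to 46.2 (0.716). The control tooth of embryo 6 was high in Spry4 at 89.7 CPM against 45.3 to 49.5 (0.906). The IGF1 tooth of embryo 6 was high in Dusp6 at 192 CPM against 94.3 to 116 (0.775). Of these 5 values, 3 come from embryo 6. No cause was tested.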

How the results depend on the processing

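Ret kept its call and direction in every alternative. Without the replicate block, 887 genes were called in place of 1666, 1 member in place of 3 (Ret), 1 gene of the HGF and MET partners (Itgb4), 2 response genes (Spry1 and Spry2) and 1 upstream regulator (Eya1). Leaving out each embryo gave 986 (without embryo 4) to 1602 (without embryo 3) genes, 2 to 3 members, 0 to 1 GDNF family genes (Sdc3 without embryo 3, named after its value was seen), 1 to 2 HGF and MET partners, 3 (without embryo 4) to 5 response genes and 1 to 2 upstream regulators. The adaptor and docking list gave 2 to 3 genes, with Stat3 added without embryo 2, also named after its value was seen. Fewer samples were fitted when an embryo was left out. For the block, the cause was not tested. Of 77 values of the members, 69 kept their direction and side of the threshold, 8 lost a call (7 of Gfra2 and 1 of Hgf) and 0 reversed. The filter of 1 CPM in 5 samples was planned as stricter but kept 15046 genes. The fewest reads were those of Nrtn, Gdnf and Ret, with 113, 293 and 396 counts over all teeth. Whether the teeth differ in cell makeup was not tested.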
